A study of Mus musculus with 10 samples.

Results

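The genes described here carry a cell through G2 and mitosis. The set was named as 40 genes of the mitotic kinases, cyclins, kinetochores, spindle, chromosomes and cytokinesis. It was chosen with earlier results of these data known. Of these, 38 were measured on the arrays, among 22180 genes in all, and all 38 were tested with no filter on low values. Ccnb1 had no probe set of its own symbol in the annotation used here, and the probe set of Ncapg was shared with a neighbouring gene, so neither was analysed. Each of the 38 genes had a single probe set that carried its symbol alone. Probe sets that carried several symbols (2 with Top2a, 1 with Nusap1) were not used.

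The samples were 10 sorted cell samples from mouse lungs at postnatal day 4, all labelled as type 2 alveolar epithelial cells (AEC2s), the surfactant-making cells that also renew the alveolar surface. The 5 SP-C+ samples were YFP-positive cells of SftpcCreERT2-R26REYFP mice after 24 h of lineage tracing, in which the promoter of Sftpc, the surfactant protein C gene, drives a tamoxifen-dependent Cre. The 5 Axin2+ samples came from Axin2CreERT2-TdTom mice, in which the Wnt target gene Axin2 drives the Cre, and were sorted as TdTomato-positive and EpCAM-positive without CD31 or CD45. The labels give all mice a mixed background of C57BL/6, 129S6 and CD-1, state no treatment, and do not give the tamoxifen dosing that such a Cre needs. No AEC2 marker is part of the Axin2+ gate as labelled, and a description shared by all samples names other ages (P3 and adult). Mouse line, reporter and gate differed with the group, so they cannot be told apart from the cell label. No label says whether replicates were different animals, and a p-value here reflects only how much these samples varied, which can include technical variation.

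Cells that divide rebuild their whole contents in a fixed order, and the genes of the last part of that order are switched on together. Cyclin A and cyclin B activate the kinase Cdk1, chromosomes condense, kinetochores catch the spindle, and a checkpoint holds the cell until every chromosome is attached. The anaphase-promoting complex then destroys cyclin B and securin, and the cell is cut apart. In resting cells these genes are held down by the DREAM complex, which binds a promoter motif called CHR (cell cycle genes homology region). In G2 the same MuvB core works with B-MYB and FOXM1 as an activator, often beside CCAAT boxes bound by NF-Y. The alveolar epithelium grows by such divisions in the first days after birth.

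The start regions of these genes were read from RefSeq's mouse assembly GRCm38.p6, from 250 bases before to 50 bases after each start, because genes under a shared control can share letters there. The table used held 33 of the 40 genes. A CHR motif (TTTGAA or TTCGAA, either strand) was found in 24 of the 33 (72.7%), against 19.4% of 16990 genes measured on the arrays and 21.7% of all 27025 genes in the table. CCAAT on either strand was found in 25 of the 33 (75.8%), against 41.6% of the measured genes, and 2 or more CCAAT in 17 (51.5%), against 14.1%. Both a CHR and a CCAAT were found in 22 (66.7%), against 8.88%. An E2F motif (TTTCCCGC, TTTCGCGC, TTTGGCGC or TTTGCCGC, either strand) was found in 2 of the 33 (6.06%), against 3.26%. In 23 of the 24 genes with a CHR, one began within 50 bases of the start. These are matches of letters, not measured binding sites.

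**Figure D1:**
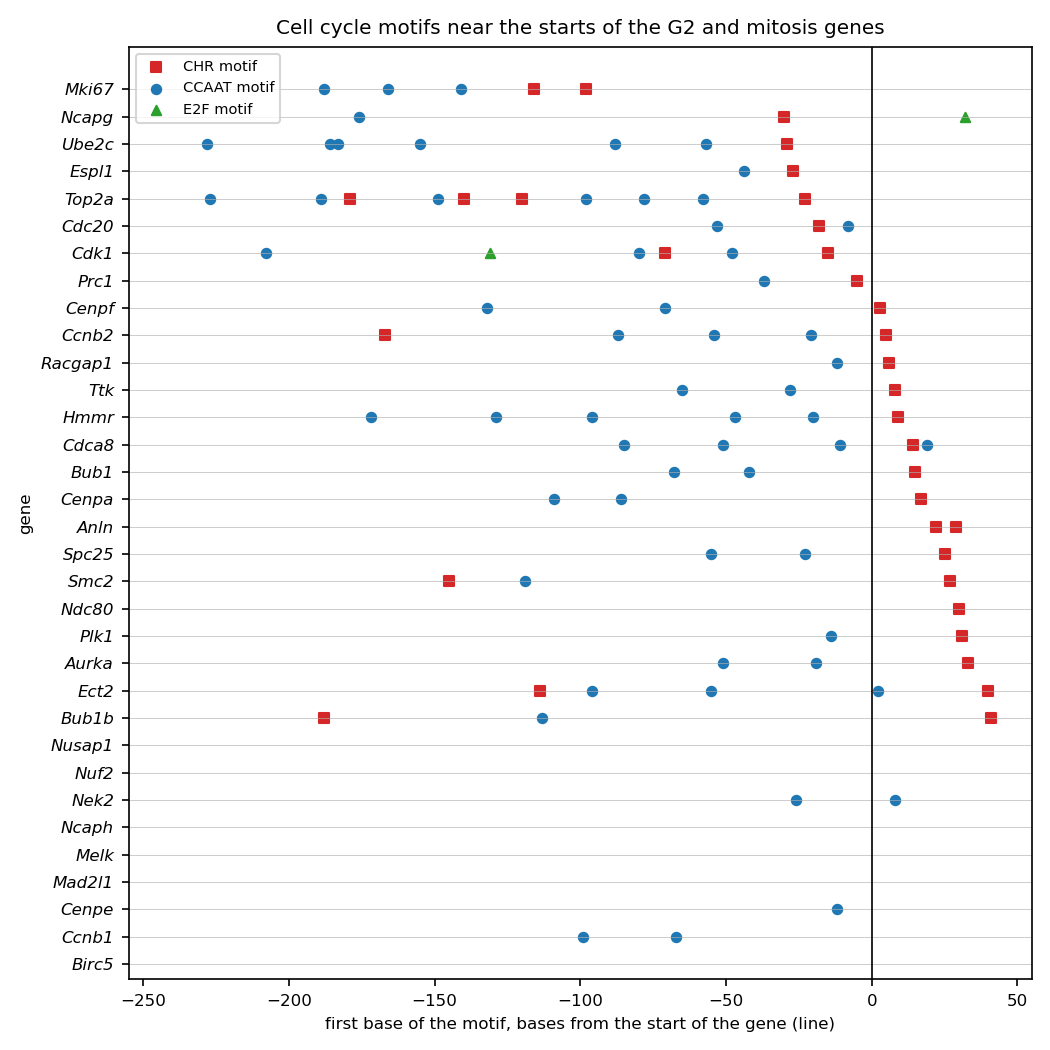
Positions of CHR, CCAAT and E2F motifs in the start regions of 33 G2 and mitosis genes, as bases from the start of the gene (line); each point is the first base of a motif. In 23 genes a CHR lies within 50 bases of the start, and 56 of the 59 CCAAT begin before the start.

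The 250 bases before the start are printed for the gene with the largest difference in each of 4 roles among genes in the table, for Bub1b, whose difference was the smallest, and for Nek2, which was added after its values were seen. Capitals mark CHR, CCAAT and E2F matches on either strand, so that CCAAT also appears as ATTGG and TTTGAA as TTCAAA. Cdk1, the mitotic kinase (chr10:69352913-69353162, minus strand), had CHR matches beginning 71 and 15 bases before the start and an E2F match 131 bases before it. Ube2c, the ubiquitin-conjugating enzyme of the anaphase-promoting complex (chr2:164769679-164769928, plus strand), had 6 CCAAT, a pair of them overlapping as one palindrome, and a CHR 29 bases before the start. Birc5 (survivin, chr11:117848987-117849236, plus strand) and Nusap1 (a spindle protein, chr2:119618048-119618297, plus strand) held none of the motifs. Bub1b (a checkpoint kinase, chr2:118597961-118598210, plus strand) held a CHR 188 bases before the start and another after it. Nek2 (a centrosome kinase, chr1:191821223-191821472, plus strand) held a CCAAT 26 bases before the start and no CHR.
Cdk1: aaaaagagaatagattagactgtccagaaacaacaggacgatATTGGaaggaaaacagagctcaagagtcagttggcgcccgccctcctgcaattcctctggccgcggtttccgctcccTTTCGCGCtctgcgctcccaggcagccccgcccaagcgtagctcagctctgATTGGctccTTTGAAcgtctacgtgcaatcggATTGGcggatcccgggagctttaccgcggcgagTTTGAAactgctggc
Ube2c: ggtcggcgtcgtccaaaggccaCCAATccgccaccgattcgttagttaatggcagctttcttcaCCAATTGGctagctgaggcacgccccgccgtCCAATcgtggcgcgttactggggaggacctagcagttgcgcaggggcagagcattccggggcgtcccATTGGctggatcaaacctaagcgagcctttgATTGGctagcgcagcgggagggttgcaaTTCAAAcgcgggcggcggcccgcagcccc
Birc5: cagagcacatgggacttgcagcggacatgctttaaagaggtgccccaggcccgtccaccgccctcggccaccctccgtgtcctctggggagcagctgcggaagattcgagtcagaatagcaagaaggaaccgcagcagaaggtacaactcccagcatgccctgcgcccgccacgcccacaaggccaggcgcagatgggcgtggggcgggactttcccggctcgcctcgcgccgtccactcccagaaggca
Nusap1: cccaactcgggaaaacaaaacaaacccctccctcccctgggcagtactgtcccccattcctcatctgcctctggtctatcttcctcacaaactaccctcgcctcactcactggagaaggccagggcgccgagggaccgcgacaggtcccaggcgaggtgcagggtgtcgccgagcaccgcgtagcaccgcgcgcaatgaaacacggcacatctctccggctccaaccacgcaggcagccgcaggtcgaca
Bub1b: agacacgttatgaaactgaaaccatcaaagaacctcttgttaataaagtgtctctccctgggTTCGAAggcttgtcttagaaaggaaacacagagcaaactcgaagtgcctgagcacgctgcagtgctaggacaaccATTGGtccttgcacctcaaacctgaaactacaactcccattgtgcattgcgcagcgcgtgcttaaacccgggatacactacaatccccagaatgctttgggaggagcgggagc
Nek2: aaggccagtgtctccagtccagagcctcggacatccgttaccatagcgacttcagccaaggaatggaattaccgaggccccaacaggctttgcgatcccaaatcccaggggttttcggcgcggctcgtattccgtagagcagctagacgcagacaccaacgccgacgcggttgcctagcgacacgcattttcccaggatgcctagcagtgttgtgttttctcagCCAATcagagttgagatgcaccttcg

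Among the measured members with a start region in the table, CHR was found in 11 of the 17 that passed the test below and in 12 of the 14 that did not. This difference in share was not tested.

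G2 and mitosis genes were higher in Axin2+ than in SP-C+ arrays, and the size of the difference depended on which SP-C+ arrays were compared. Of the 38 genes, 22 rose and 0 fell at an adjusted p under 0.05 in limma, with Benjamini-Hochberg adjustment over all genes. Of all 22180 genes, 8.61% were higher and 8.95% lower by the same test. All 38 fitted differences were above 0, whereas 39.9% of all genes had a difference above 0. Because the set was chosen with earlier results of these data known, these shares describe it and are not an independent test. At an unadjusted p under 0.05, 32 of the 38 were higher and 0 lower (shares of all genes not counted). The median difference was 0.81 on the log2 scale, against -0.04 over all genes, and single genes ranged from 0.15 (Bub1b) to 1.96 (Cdk1). At least 2-fold rises were found for 13 genes (share of all genes not counted). At an adjusted p under 0.01, 10 genes passed (6.00% of all genes were higher at that level). Whether more cells were in G2 and mitosis or each such cell held more RNA cannot be told apart in sorted bulk samples.

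The groups overlapped for most members. In only 5 of the 38 genes (Nek2, Ect2, Birc5, Dlgap5 and Espl1) did every Axin2+ array lie above every SP-C+ array, against 7.38% of all genes. Leaving out 1 array at a time gave 12 to 31 rises among the 38, and 1597 to 1950 among all 22180 genes. The count among the 38 was 14, 12 and 14 without SP-C+ replicates 1, 2 and 3 in turn (1819, 1741 and 1747 of all genes). It was 14 without Axin2+ replicate 1 or Axin2+ replicate 2 (1680 and 1778 of all genes). In all, 12 genes passed in every such fit (share of all genes not counted): Cdk1, Ccnb2, Mki67, Top2a, Ncaph, Smc2, Nuf2, Ect2, Birc5, Dlgap5, Espl1 and Nek2.

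SP-C+ arrays fell into a low set of 3 and a higher pair. The mean log2 value of the 38 genes was 6.18, 6.08 and 6.05 in SP-C+ replicates 1, 2 and 3, and 6.86 and 7.01 in replicates 4 and 5. It was 7.83, 7.62, 7.27, 7.12 and 6.75 in Axin2+ replicates 1 to 5. Axin2+ replicate 5 thus lay below SP-C+ replicates 4 and 5 in this mean. In 33 of the 38 genes both SP-C+ replicates 4 and 5 lay above replicates 1, 2 and 3, an order seen in 14.4% of all genes. SP-C+ replicate 5 was the highest SP-C+ array in 25 genes (16.4% of all genes) and replicate 4 in 11. Axin2+ replicate 1 was the highest Axin2+ array in 31 genes (22.6% of all genes) and replicate 5 the lowest in 34 (19.2% of all genes). Axin2+ replicate 1 lay above every SP-C+ array in 36 genes, and replicate 5 did so in 5 (shares of all genes not counted).

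The members also varied more within groups than most genes did. The median standard deviation (SD) over the 5 arrays of a group was 0.47 in SP-C+ and 0.47 in Axin2+ arrays, against 0.17 and 0.13 over all genes. The SD was above the median of all genes for 36 of the 38 members in SP-C+ arrays and for 35 in Axin2+ arrays.

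**Figure D2:**
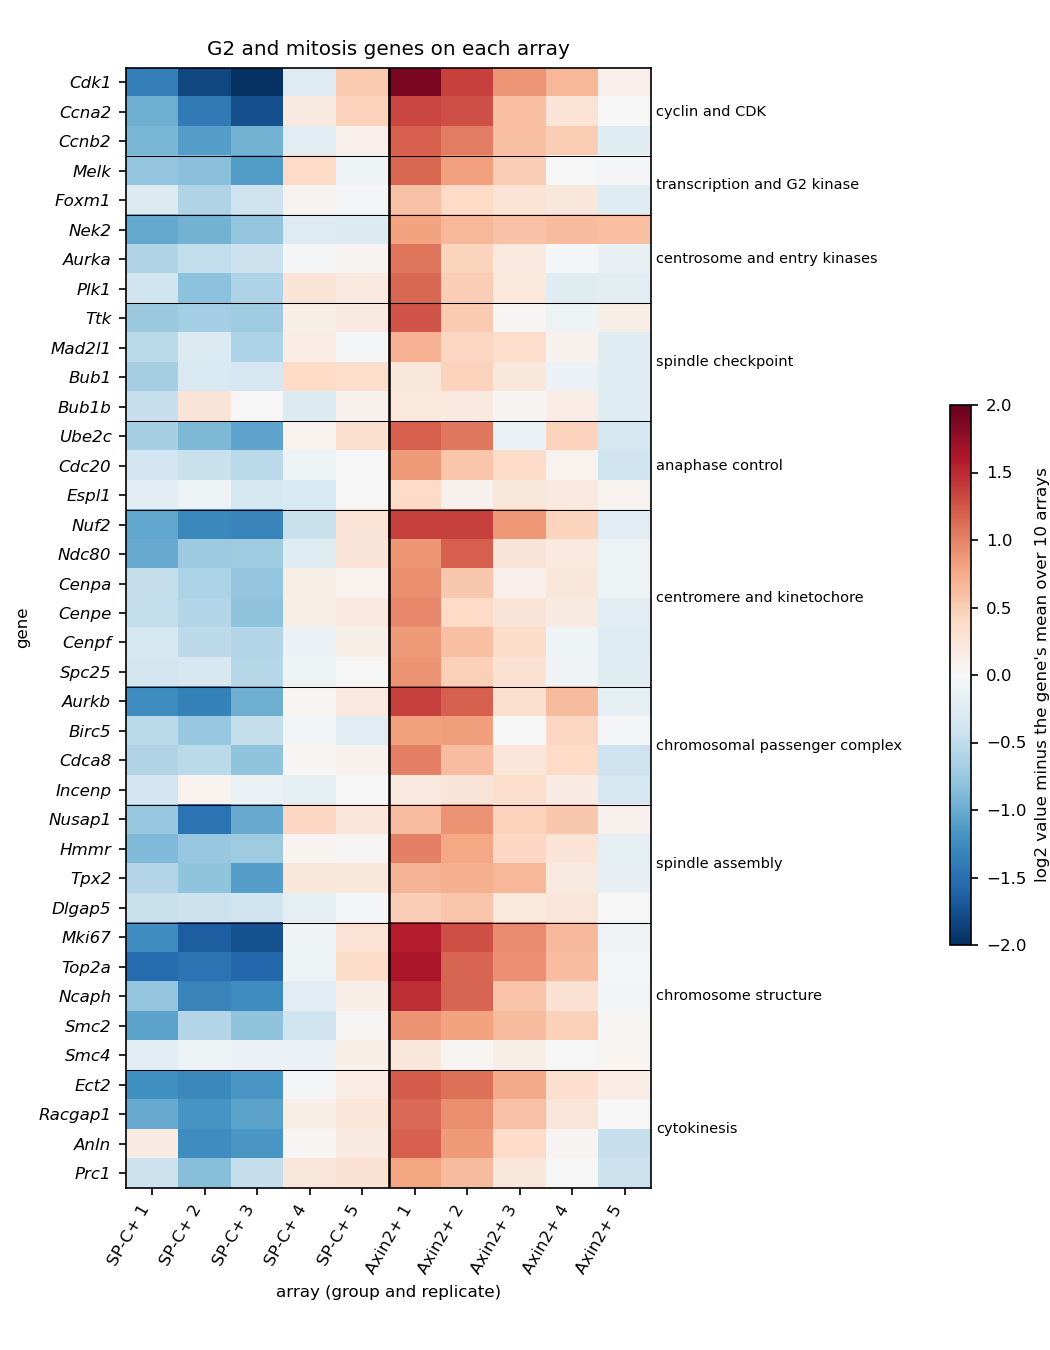
Log2 value of each of the 38 genes on each of the 10 arrays, minus the gene's mean over all arrays, with genes grouped by role. SP-C+ replicates 1, 2 and 3 are blue in most rows, SP-C+ replicates 4 and 5 are near white, and among Axin2+ arrays replicate 1 is the reddest and replicate 5 near white or pale blue in most rows; Nek2 is red on all 5 Axin2+ arrays.

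When SP-C+ replicates 4 and 5 were left out, 34 of the 38 members rose (9.57% of all genes), with a median of 1.11. When instead SP-C+ replicates 1, 2 and 3 were left out, 1 member, Nek2, rose (6.78% of all genes), with a median of 0.33. Still above 0 were 36 of the 38 differences, and 9425 of those of all 22180 genes. The second comparison rests on 2 SP-C+ arrays. The arrays left out were picked from their levels of these genes, so both values describe the spread between arrays.

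Markers of other cell types moved with the groups as well. All 15 AEC1 (type 1 alveolar cell) markers rose, with list means of 8.93 to 9.45 in SP-C+ and 11.39 to 11.78 in Axin2+ arrays. Of 15 ciliated cell markers 13 rose, with list means of 5.52 to 5.73 and 7.46 to 7.89. Of 9 club cell markers 6 rose, with list means of 7.39 to 7.75 and 8.47 to 8.95. AEC2 markers were near 13 on every array (12.97 to 13.09 and 12.85 to 12.96; 2 of 16 fell). In SP-C+ replicates 4 and 5 the AEC1 mean was 9.07 and 9.04 and the ciliated mean 5.60 and 5.52, against 8.93 to 9.45 and 5.55 to 5.73 in replicates 1, 2 and 3. The part of these cell types in the mitotic differences was not tested.

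Endothelial, leukocyte and erythroid markers had higher means in SP-C+ replicates 1, 2 and 3 than in replicates 4 and 5, opposite to the mitotic genes. The 10 endothelial markers averaged 7.04, 6.09 and 6.39 in SP-C+ replicates 1, 2 and 3 and 5.94 and 5.86 in replicates 4 and 5, against 6.08 to 6.23 in Axin2+ arrays. None of the 10 passed the group test. For leukocyte markers the same 3 arrays averaged 6.30, 6.03 and 6.02 and the other pair 5.94 and 5.96, and for erythroid markers 5.39, 5.46 and 5.55 against 5.34 and 5.37. In both lists the closest arrays of the 2 sets were almost level (6.02 and 5.96, 5.39 and 5.37). For endothelial markers the closest were 6.09 and 5.94, and SP-C+ replicate 1 (7.04) stood highest. Of these genes, 8 of 10 endothelial, 12 of 15 leukocyte and all 4 erythroid markers had a mean below that of the median gene. Mesenchymal markers did not split this way (6.66, 6.13 and 6.23 against 6.37 and 6.12). The part of these cells in the mitotic differences was not tested. Leukocyte markers (15 genes; 1 rose, 1 fell) had means of 5.94 to 6.30 in SP-C+ and 5.96 to 6.11 in Axin2+ arrays, with Ptprc, the CD45 gene, at 4.81 or lower on every array. Mesenchymal markers (10 genes; 0 rose, 1 fell) had means of 6.12 to 6.66 and 6.08 to 6.33. Erythroid markers (4 measured; 0 rose, 1 fell) lay between 5.14 and 5.55. Xist was at 12.48 in SP-C+ replicate 1 and 11.79 in Axin2+ replicate 2, both of which also had high Y-linked genes (Uty at 7.31 and 8.92), so these samples held RNA of both sexes. Xist was also high in SP-C+ replicate 4 (12.66) and low in SP-C+ replicate 5 (6.37). The mean of Xist and the measured Y-linked genes was 6.21 in SP-C+ replicate 4. It was 6.13, 6.10 and 6.17 in Axin2+ replicates 1, 3 and 5, and 8.42 to 9.58 on the other arrays of both groups. Arrays with a low mean were thus more common in Axin2+ than in SP-C+. A low mean did not mark low Xist in SP-C+ replicate 4, where Xist was at 12.66. The part of sex in the mitotic differences was not tested.

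**Figure D3:**
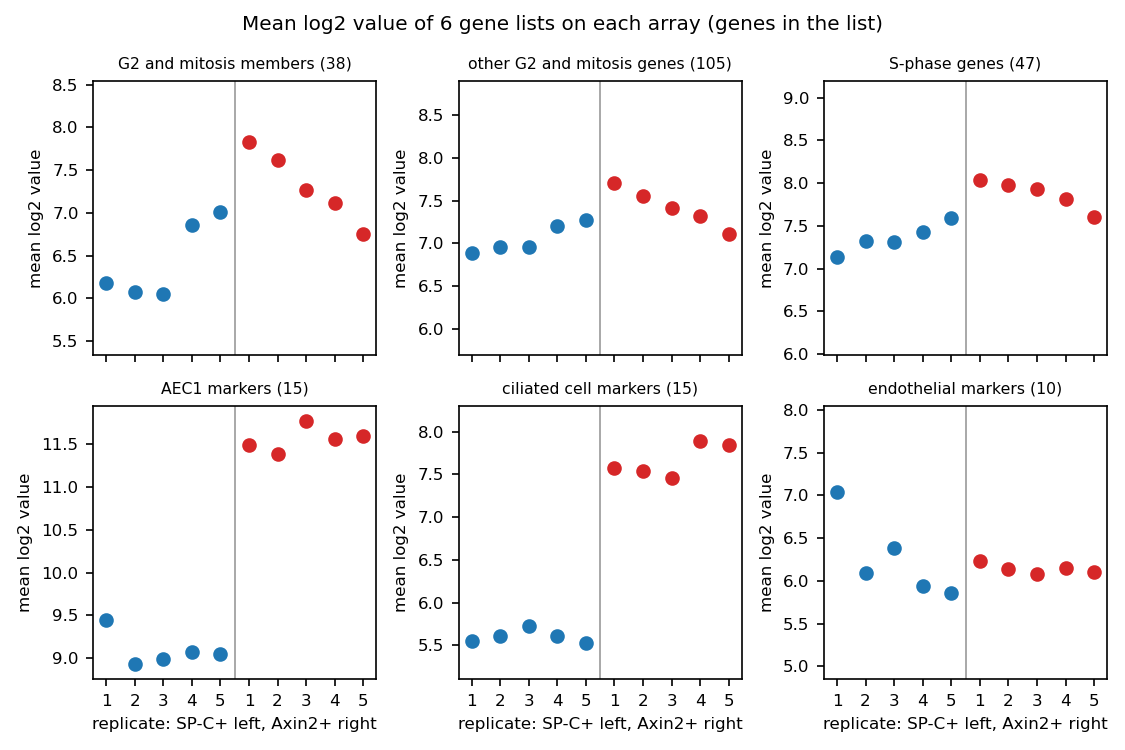
Mean log2 value of 6 gene lists on each array, SP-C+ in blue and Axin2+ in red, each panel with its own level but the same height of scale. The 38 G2 and mitosis genes run from 6.05 to 7.01 in SP-C+ and from 6.75 to 7.83 in Axin2+ arrays, while AEC1 and ciliated cell markers form 2 separate levels; endothelial markers are highest in SP-C+ replicate 1.

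All 3 measured genes of the cyclins and their kinase rose, and Cdk1 had the largest difference of the 38 genes. In the lists below, values are given in the order of replicates 1 to 5. Cdk1, which drives entry into mitosis, measured 6.28, 5.83, 5.67, 7.40 and 8.18 in SP-C+ arrays and 9.53, 9.02, 8.54, 8.31 and 7.75 in Axin2+ arrays. The groups overlapped through SP-C+ replicate 5, which lay above Axin2+ replicate 5. The difference was 1.96 ± 0.46 (SE, n = 5 per group), or 3.89-fold, with an adjusted p of 0.00988 in limma. Ccnb2, a cyclin B, measured 7.55, 7.36, 7.52, 8.25 and 8.56 in SP-C+ and 9.65, 9.48, 9.07, 8.98 and 8.22 in Axin2+ arrays. Only Axin2+ replicate 5 lay within the SP-C+ range, and the difference was 1.23 ± 0.28 (adjusted p = 0.00829). Ccna2, cyclin A of S phase and G2, rose by 1.40 ± 0.41 (adjusted p = 0.0336), from a range of 6.14 to 8.36 to one of 7.92 to 9.25, but not in every fit without 1 array (adjusted p up to 0.0820). Without SP-C+ replicates 1, 2 and 3, Cdk1 was at 0.84 and Ccna2 at 0.38, and neither passed (adjusted p = 0.238 and 0.548).

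Foxm1 and Melk, grouped as transcription and G2 kinase genes, both rose. Foxm1, the transcription factor of late cell cycle genes, measured 6.83, 6.50, 6.69, 7.16 and 7.07 in SP-C+ and 7.69, 7.51, 7.38, 7.33 and 6.85 in Axin2+ arrays. It overlapped only through Axin2+ replicate 5, and its difference of 0.50 ± 0.16 passed narrowly (adjusted p = 0.0462; up to 0.109 without 1 array). Melk, a kinase that peaks in mitosis, measured 5.54, 5.48, 5.20, 6.73 and 6.23 in SP-C+ and 7.47, 7.15, 6.81, 6.32 and 6.29 in Axin2+ arrays. SP-C+ replicate 4 lay above Axin2+ replicates 4 and 5, and the difference was 0.97 ± 0.30 (adjusted p = 0.0392; up to 0.0937 without 1 array). Of the genes of B-MYB and the MuvB core, chosen after their values were seen, Mybl2 (B-MYB) rose by 0.50 ± 0.11 (adjusted p = 0.00799). The MuvB core genes Lin9, Lin37, Lin52, Lin54 and Rbbp4 had differences of 0.08, 0.07, -0.11, -0.19 and 0.08, and none passed (adjusted p = 0.150 to 0.738).

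Of the 3 kinases of the centrosome and of mitotic entry, 1 rose, and it had the smallest adjusted p of the 38 genes. Nek2, which splits the duplicated centrosomes, measured 4.55, 4.61, 4.78, 5.31 and 5.29 in SP-C+ and 6.38, 6.23, 6.15, 6.20 and 6.17 in Axin2+ arrays. The groups were far apart and the Axin2+ arrays lay close together (SD 0.09), where most members spread widely. The difference was 1.32 ± 0.15 (adjusted p = 3.49e-05), and it was 0.93 ± 0.09 without SP-C+ replicates 1, 2 and 3 (adjusted p = 1.67e-04). Those arrays were left out after their levels of these genes were seen, and 2 SP-C+ arrays remained, so this fit is a description only. Plk1, the polo-like kinase of mitotic entry, measured 6.66, 6.24, 6.44, 7.32 and 7.26 in SP-C+ and 8.21, 7.55, 7.27, 6.83 and 6.84 in Axin2+ arrays. Axin2+ replicates 4 and 5 lay below SP-C+ replicates 4 and 5, and the difference of 0.56 ± 0.28 did not pass (adjusted p = 0.205). Aurka, the spindle pole kinase that activates Plk1, was at 0.61 ± 0.21 and did not pass (adjusted p = 0.0653). It ran from 6.18 to 6.83 in SP-C+ and from 6.64 to 7.85 in Axin2+ arrays.

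**Figure D4:**
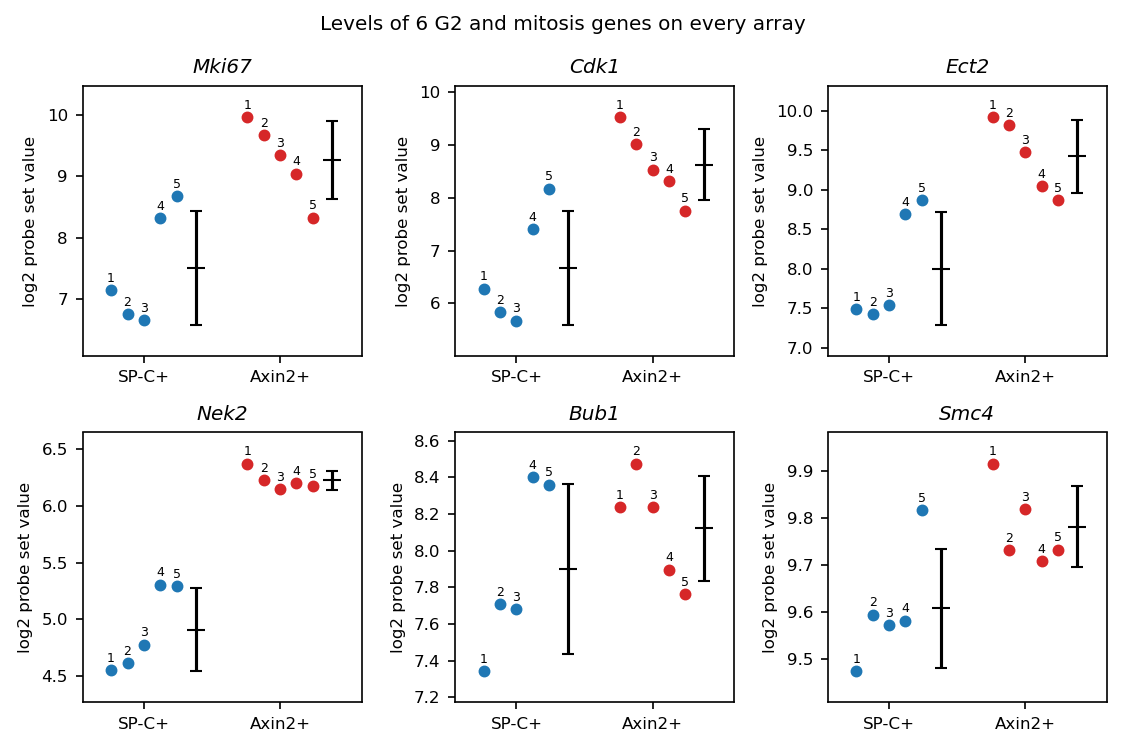
Log2 values of 6 genes on every array, with replicate numbers beside the points and the mean ± SD of each group as bars; each panel has its own scale. Mki67, Cdk1 and Ect2 show the low SP-C+ replicates 1, 2 and 3, Nek2 shows 5 close Axin2+ values at 6.15 to 6.38, and Bub1 is as high in SP-C+ replicates 4 and 5 as in Axin2+ arrays.

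None of the 4 spindle checkpoint genes passed, although all had differences above 0. Ttk, the kinase that starts the checkpoint signal, measured 4.73, 4.79, 4.75, 5.59 and 5.65 in SP-C+ and 6.72, 5.99, 5.49, 5.37 and 5.59 in Axin2+ arrays. A single array, Axin2+ replicate 1, stood well above the rest, and the difference was 0.73 ± 0.27 (adjusted p = 0.0817). Bub1b, the kinase-like checkpoint protein BubR1, measured 6.62, 7.34, 7.10, 6.82 and 7.18 in SP-C+ and 7.30, 7.28, 7.14, 7.24 and 6.84 in Axin2+ arrays. Its values followed neither the groups nor the split of the SP-C+ arrays (0.15 ± 0.14, adjusted p = 0.526; 95% interval of the difference -0.15 to 0.45). Mad2l1, the Mad2 inhibitor of Cdc20, was at 0.52 ± 0.18 (adjusted p = 0.0701). Bub1 measured 7.34, 7.71, 7.68, 8.40 and 8.36 in SP-C+ and 8.24, 8.47, 8.24, 7.90 and 7.76 in Axin2+ arrays, a difference of 0.22 ± 0.20 (adjusted p = 0.528). SP-C+ replicates 4 and 5 matched the top of the Axin2+ range, so that the Bub1 difference turned to -0.26 without SP-C+ replicates 1, 2 and 3 (adjusted p = 0.412).

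Of the 3 genes of anaphase control, 1 passed. Ube2c measured 6.73, 6.49, 6.34, 7.46 and 7.72 in SP-C+ and 8.59, 8.44, 7.25, 7.86 and 7.05 in Axin2+ arrays. Axin2+ arrays spread as widely as SP-C+ arrays, and the difference of 0.89 ± 0.33 did not pass (adjusted p = 0.0886). Espl1, the separase that cuts cohesin, measured 6.17, 6.28, 6.03, 6.08 and 6.39 in SP-C+ and 6.77, 6.47, 6.61, 6.57 and 6.45 in Axin2+ arrays. The arrays of each group lay close together and the groups did not overlap. The difference was small, 0.39 ± 0.09, and passed (adjusted p = 0.0109). Cdc20, the activator of the anaphase-promoting complex, ran from 7.88 to 8.42 in SP-C+ and from 8.03 to 9.27 in Axin2+ arrays (0.58 ± 0.20, adjusted p = 0.0615).

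Of the 6 centromere and kinetochore genes, 3 rose. Nuf2, of the Ndc80 complex that grips microtubules, measured 5.01, 4.76, 4.73, 5.61 and 6.33 in SP-C+ and 7.42, 7.41, 6.91, 6.49 and 5.83 in Axin2+ arrays. The difference was 1.53 ± 0.35 (adjusted p = 0.00842), with overlap only between SP-C+ replicate 5 and Axin2+ replicate 5. Ndc80 itself rose by 0.98 ± 0.27 (adjusted p = 0.0237, up to 0.0603 without 1 array). Spc25, of the same complex, was at 0.55 ± 0.19 (adjusted p = 0.0670). Spc25 measured 5.36, 5.40, 5.15, 5.62 and 5.71 in SP-C+ and 6.62, 6.21, 6.03, 5.65 and 5.48 in Axin2+ arrays, where replicates 4 and 5 fell among the SP-C+ values. Cenpa, the histone H3 variant that marks centromeres, rose by 0.68 ± 0.21 (adjusted p = 0.0450, up to 0.105 without 1 array). Cenpe, a kinetochore motor, and Cenpf were at 0.62 ± 0.23 and 0.59 ± 0.20 (adjusted p = 0.0815 and 0.0683).

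The chromosomal passenger complex corrects faulty attachments and then moves to the midzone; 2 of its 4 genes rose. Its kinase Aurkb measured 5.87, 5.76, 6.15, 7.15 and 7.32 in SP-C+ and 8.49, 8.31, 7.44, 7.76 and 6.94 in Axin2+ arrays. Axin2+ replicate 5 alone lay within the SP-C+ range. The difference was 1.34 ± 0.35 (adjusted p = 0.0191, up to 0.05003 without 1 array). Birc5 rose by 0.82 ± 0.19 (adjusted p = 0.00949) without overlap, from 4.56 to 5.27 in SP-C+ and 5.30 to 6.16 in Axin2+ arrays. Cdca8 (borealin) was at 0.74 ± 0.24 (adjusted p = 0.0535). Incenp, the scaffold, measured 5.98, 6.44, 6.24, 6.18 and 6.38 in SP-C+ and 6.57, 6.62, 6.73, 6.53 and 6.03 in Axin2+ arrays. Axin2+ replicate 5 was below all other Axin2+ arrays, and the difference of 0.25 ± 0.13 did not pass (adjusted p = 0.228).

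All 4 spindle assembly genes rose. Nusap1, which bundles microtubules, measured 5.87, 5.15, 5.62, 7.04 and 6.87 in SP-C+ and 7.25, 7.53, 7.09, 7.16 and 6.71 in Axin2+ arrays. SP-C+ replicates 4 and 5 lay above Axin2+ replicate 5. The difference was 1.04 ± 0.32 (adjusted p = 0.0386, up to 0.0920 without 1 array) but 0.19 without SP-C+ replicates 1, 2 and 3. Dlgap5, a spindle stabilizer, measured 5.37, 5.39, 5.41, 5.64 and 5.78 in SP-C+ and 6.30, 6.37, 6.02, 6.05 and 5.82 in Axin2+ arrays. The groups did not overlap, and the difference was 0.60 ± 0.12 (adjusted p = 0.00378). Hmmr rose by 0.91 ± 0.24 (adjusted p = 0.0193, up to 0.05002 without 1 array). Tpx2, the activator of Aurora A on the spindle, rose by 0.82 ± 0.26 (adjusted p = 0.0494, up to 0.113 without 1 array).

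Of the 5 measured genes of chromosome structure, 4 rose. Mki67, which coats mitotic chromosomes and is the common marker of cycling cells, measured 7.15, 6.75, 6.65, 8.32 and 8.67 in SP-C+ and 9.97, 9.68, 9.34, 9.04 and 8.32 in Axin2+ arrays. SP-C+ replicates 4 and 5 reached the level of Axin2+ replicate 5, and the difference was 1.76 ± 0.41, or 3.39-fold (adjusted p = 0.00893). Top2a, the topoisomerase that untangles sister chromosomes, measured 5.46, 5.54, 5.43, 6.92 and 7.37 in SP-C+ and 8.65, 8.18, 7.92, 7.62 and 6.98 in Axin2+ arrays. Here too Axin2+ replicate 5 lay among SP-C+ replicates 4 and 5 (1.72 ± 0.40, adjusted p = 0.00985). The condensin genes split: Ncaph rose by 1.38 ± 0.33 and Smc2 by 1.13 ± 0.20 (adjusted p = 0.0104 and 0.00169), while Smc4, the partner of Smc2, did not pass (0.17 ± 0.08, adjusted p = 0.177). Smc4 measured 9.47, 9.59, 9.57, 9.58 and 9.82 in SP-C+ and 9.92, 9.73, 9.82, 9.71 and 9.73 in Axin2+ arrays, so its arrays spread little. Whether the Smc2 and Smc4 differences differ was not tested.

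Cytokinesis genes were divided, with 2 of 4 higher. Ect2, which activates RhoA at the cleavage site, measured 7.49, 7.43, 7.54, 8.69 and 8.86 in SP-C+ and 9.92, 9.81, 9.47, 9.04 and 8.87 in Axin2+ arrays. Axin2+ replicate 5 and SP-C+ replicate 5 were almost level, and the groups just failed to overlap (1.42 ± 0.31, adjusted p = 0.00635). Racgap1, the centralspindlin subunit that recruits Ect2, rose by 1.14 ± 0.31 (adjusted p = 0.0209; up to 0.0545 without 1 array). Prc1, which bundles the midzone, measured 7.21, 6.79, 7.17, 7.87 and 7.95 in SP-C+ and 8.42, 8.28, 7.87, 7.64 and 7.22 in Axin2+ arrays. Its groups overlapped widely (0.49 ± 0.26, adjusted p = 0.234), and the difference was -0.025 without SP-C+ replicates 1, 2 and 3 (adjusted p = 0.972). Anln, the anillin of the contractile ring, measured 7.17, 5.77, 5.84, 7.03 and 7.18 in SP-C+ and 8.20, 7.86, 7.39, 7.06 and 6.55 in Axin2+ arrays. SP-C+ replicate 1, the array with the highest endothelial markers, was as high in Anln as replicates 4 and 5, and the difference of 0.81 ± 0.35 did not pass (adjusted p = 0.148).

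**Figure D5:**
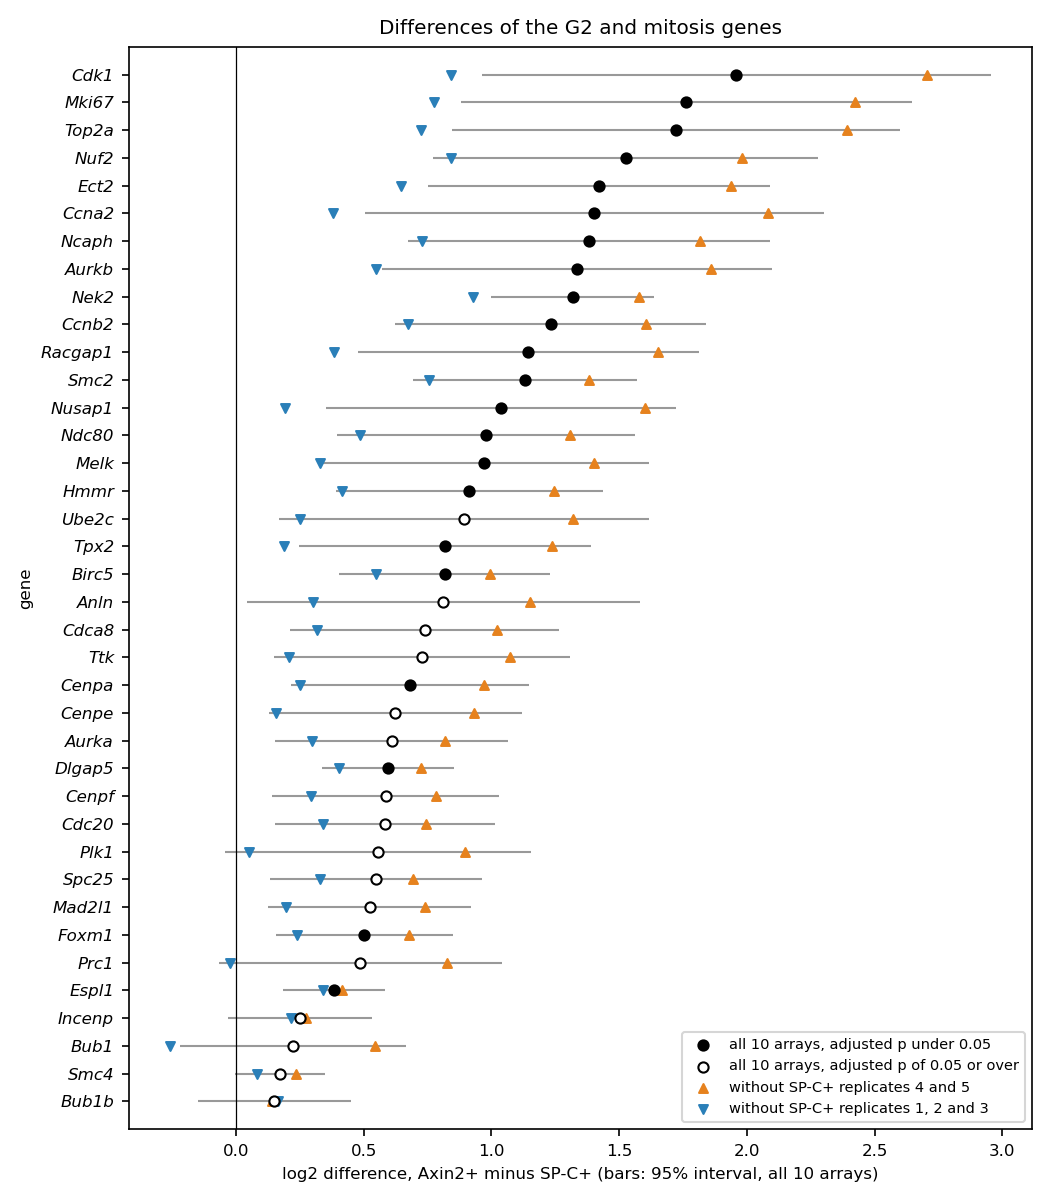
Log2 difference, Axin2+ minus SP-C+, of each of the 38 genes with its 95% interval over all 10 arrays (circles, filled where the adjusted p is under 0.05), and the difference without SP-C+ replicates 4 and 5 (upward triangles) or without SP-C+ replicates 1, 2 and 3 (downward triangles). The circles run from 0.15 (Bub1b) to 1.96 (Cdk1); the downward triangles are below the circles in all genes but Bub1b, and below 0 for Bub1 (-0.26) and Prc1 (-0.025).

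A wider list held 105 further G2 and mitosis genes, named by function. Of these 33 rose and 1 fell (8.61% and 8.95% of all genes), with a median of 0.27. The 3 largest rises were those of Kif23, the kinesin of centralspindlin (1.55 ± 0.27, adjusted p = 0.00134), Cdca7l (1.45 ± 0.21, adjusted p = 4.13e-04) and Stil, a gene of centriole duplication (1.40 ± 0.27, adjusted p = 0.00314). Wee1, the kinase that restrains Cdk1, was the gene that fell (by 0.34, SE 0.08, adjusted p = 0.0132). Without Axin2+ replicate 1 or Axin2+ replicate 3 the count of rises was 20. Kif23 and Cdca7l also passed without SP-C+ replicates 1, 2 and 3 (0.86 and 1.03, adjusted p = 0.0236 and 0.0265). Those arrays were left out after the data were seen, and 2 SP-C+ arrays remained. In that fit 4 of the 105 rose, a smaller share than the 6.78% of all genes. The list mean was 6.88 to 7.28 in SP-C+ and 7.10 to 7.70 in Axin2+ arrays, lowest among Axin2+ arrays in replicate 5.

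Genes of S phase moved in the same direction. Of 47 measured, 28 rose and 1 fell (8.61% and 8.95% of all genes), with a median of 0.47. Mcm5, of the replicative helicase, rose by 1.83 ± 0.32, E2f1, the transcription factor of S phase entry, by 1.38 ± 0.10, and Pole, a replicative polymerase, by 1.26 ± 0.23 (adjusted p = 0.00138, 7.96e-07 and 0.00223). Orc6, of the origin recognition complex, fell by 0.46 (SE 0.13, adjusted p = 0.0288; up to 0.0702 without 1 array). Without SP-C+ replicates 1, 2 and 3, 12 of the 47 rose (6.78% of all genes), E2f1 among them (1.29, adjusted p = 2.91e-04). In that fit 1 of the 38 G2 and mitosis genes rose. The 3 arrays left out were picked for their low levels of the G2 and mitosis genes, so this fit cannot compare the lists. The difference between the lists was not tested.

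Of 14 genes that slow or stop the cycle, 2 rose and 3 fell (8.61% and 8.95% of all genes). Cdkn1a (p21), an inhibitor of cyclin-dependent kinases, measured 12.36, 12.59, 12.25, 11.85 and 11.70 in SP-C+ and 11.48, 11.37, 11.74, 11.66 and 11.82 in Axin2+ arrays. SP-C+ replicates 1, 2 and 3, the arrays lowest in mitotic genes, were the 3 highest in Cdkn1a. Cdkn1a fell by 0.53 (SE 0.16, adjusted p = 0.0352), but not in every fit without 1 array (adjusted p up to 0.0856), and was at -0.16 without SP-C+ replicates 1, 2 and 3 (adjusted p = 0.511). Rbl2 (p130), the pocket protein of the DREAM complex, fell by 0.40 (SE 0.07, adjusted p = 0.00218). It also passed without those 3 arrays (adjusted p = 0.0168), a fit chosen after the data were seen. Cdkn2b (p15) rose by 1.59 ± 0.30 and Cdkn2c (p18) by 0.68 ± 0.19 (adjusted p = 0.00237 and 0.0239), the latter not in every fit without 1 array (adjusted p up to 0.0609).

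Genes that make the many centrioles of ciliated cells share some parts with mitosis, so 14 of them were set beside the mitotic genes. Of these, 5 rose and 1 fell (8.61% and 8.95% of all genes). Myb, a transcription factor of ciliated cell precursors, rose by 3.56 ± 0.11 (adjusted p = 2.46e-10) and lay between 8.89 and 9.29 in Axin2+ arrays, against 5.47 to 5.90 in SP-C+ arrays. Deup1, of the deuterosome, rose by 1.46 ± 0.16 and Ccno, a cyclin-like gene of this process, fell by 0.75 (SE 0.09; adjusted p = 2.99e-05 and 7.71e-05). Myb, like Nek2, lay at close values on the 5 Axin2+ arrays. Of the driver genes of the labels, Axin2 fell by 0.53 (SE 0.08, adjusted p = 3.28e-04). Sftpc read between 13.97 and 14.15 on every array, close to the highest value in the data (14.16), so a difference in its level could be hidden there.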

How the data were processed

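RNA (100 ng per sample) was labelled with biotin after poly(T) priming and measured on 10 one-colour arrays. The authors deposited log2 values per probe set; oligo, RMA and limma appear in the submitters' processing notes, whereas their order, settings and genome build are not given in the sources used here. The log base was read from the range of values (1.69 to 14.16). Array medians lay between 5.89 and 5.97.

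Of 41345 probe sets, 23521 carried 1 gene symbol, 1814 several and 16010 none. Each of 22180 genes was represented by its probe set of highest average signal across the 10 arrays. The groups were fitted on all genes in R 4.3.3 using limma 3.58.1, as Axin2+ minus SP-C+, with Benjamini-Hochberg adjustment. On simulated data with 200 changed genes among 22180, the test recovered 38% of log2 changes of 0.5, 94% of 1 and 100% of 2. Of its calls, 5.14% were false. In the measured data the median SE of the difference was 0.25 for the 38 G2 and mitosis genes and 0.10 for all genes. Recovery at the larger spread of the 38 genes was not tested.

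The genes and lists were chosen with earlier results of these data known. Every array is given for Mki67, Top2a and Cdk1 and for the genes with the largest and smallest difference of each role; Bub1 and Anln were added after their values were seen. From the wider cell cycle lists the 3 largest rises and the gene that fell are named. Alternatives were a replicate block, median centring, quantile normalization, filters on low values, other probe set choices, an intensity trend, array weights, a stricter threshold and leaving out each array. Leaving out SP-C+ replicates 4 and 5, or 1, 2 and 3, was chosen after seeing the data.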

Additional observations from a re-analysis of the deposited data

Results flagged for a closer look

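A single value stood apart from its group. Incenp, the scaffold of the chromosomal passenger complex, was at 6.03 in Axin2+ replicate 5 and at 6.53 to 6.73 on the other 4 Axin2+ arrays, so that the gap made up 0.719 of the range of the group. Of 134 groups of 5 values checked in this way, 1 was marked (0.746%), whereas chance marks about 5%. Axin2+ replicate 5 was also the lowest Axin2+ array in 34 of the 38 G2 and mitosis genes.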

How the results depend on the processing

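Without 1 array at a time, 12 to 31 of the 38 G2 and mitosis genes rose and 0 to 0 fell, 20 to 42 of the other 105 rose and 1 to 2 fell, 23 to 29 of 47 S-phase genes rose and 0 to 1 fell, and 1597 to 1950 of all genes rose and 1377 to 2073 fell. No pairing by replicate number was seen: same-numbered arrays had correlations of deviations from -0.23 to 0.0135, and 0 of 5 arrays correlated best with their own number. The best correlations of Axin2+ with any SP-C+ arrays were low (0.0481 to 0.21), so this check cannot exclude a shared sort or array day. With the replicate block, 12 of the 38 and 19 of the other 105 genes rose, and 0 S-phase genes fell. Median centring moved the differences by 0.093, with 19 of the 38 higher, and gave 1561 higher and 4412 lower calls over all genes in place of 1909 and 1985. Of the other 105 genes, 4 fell with median centring, 3 with quantile normalization, 3 among genes above the 25th percentile and 3 above the 50th percentile, where 18 rose. On all probe sets 0 S-phase genes fell. At an adjusted p under 0.01, 10 of the 38 genes rose (6.00% of all genes), 13 of the other 105 rose and 0 fell, 0 S-phase genes fell, and 919 of all genes fell. Without SP-C+ replicates 4 and 5, 34 of the 38 rose (9.57% of all genes). Without SP-C+ replicates 1, 2 and 3, 1 of the 38, 4 of the other 105 and 12 S-phase genes rose (6.78% of all genes). Those arrays were picked for their low levels of the 38 genes, so these counts do not compare the lists. In that fit 0 of the other 105 and 0 S-phase genes fell, and Bub1 (-0.26) and Prc1 (-0.025) turned sign. The cause of these changes was not tested. The number of arrays, 5 per group, limits the precision.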

Other observations

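Pttg1 (securin), which holds separase inactive until anaphase, had a difference against the direction of most mitotic genes, and was chosen after its values were seen. It ran from 7.87 to 8.55 in SP-C+ and from 6.77 to 8.23 in Axin2+ arrays, a difference of -0.71 with an SE of 0.23 that did not pass in limma (adjusted p = 0.0544).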
